A study of Homo sapiens with 12 samples.

Results

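Described here are 10 of the 18334 genes measured, the claudins CLDN1, CLDN2, CLDN3, CLDN4, CLDN7, CLDN12 and CLDN18 and the MARVEL-type tight junction genes OCLN, MARVELD2 and MARVELD3. They were chosen by name as components of the tight junction, and they were read by 17 of the 31332 array features that carry 1 gene symbol. All 10 were measured on every array, with no filter on low values. The study used 12 arrays with a pair of dyes, and each carried RNA of 1 of 8 established human tumour lines beside a common reference of whole human RNA. MiaPaca2 had 2 arrays with a DMSO media label and 1 array without a media label, and Panc1 had 2 arrays with the DMSO label. Capan2, HPAC and HPAFII had 1 array each without a media label. HT29 had 2 arrays with the DMSO label, and HCT-116 and SW620 had 1 array each without one. DMSO is a solvent commonly used as a vehicle for drugs, and the labels name no drug. Cell line catalogues give HCT-116, HT29 and SW620 as colorectal, and they are called so here, although the study's design text names only pancreatic lines. Each line is a single established line, so no result separates a tumour type from the line that stands for it.

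Tight junctions close the space between neighbouring epithelial cells. Claudins are membrane proteins that form the strands of the junction, and which claudins a cell makes decides whether the strand seals the space or lets ions and water pass. Occludin, tricellulin and MARVELD3 share the MARVEL membrane domain and sit in or beside the strands, with tricellulin gathered at the corners where cells meet. Adaptors such as ZO-1 tie the strands to actin. Duct cells of the pancreas and the lining of the colon are sealed by such junctions, and repressors of the SNAIL and ZEB families are known to bind E-box sequences in the promoters of several junction genes.

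Each value is a deposited ratio that was read as log2 of the line's signal over the reference signal. The dyes make that direction likely, but no source states it, and if it ran the other way all signs and line orders below would be reversed. A level is such a ratio, so 0 means the reference level and not absence, and levels of different genes are not compared with each other. No intensity was available, so a dim feature could not be told from a bright one. Across genes, the correlation between arrays was 0.874 to 0.941 inside a group and 0.37 to 0.731 between lines. The number of arrays limits the precision. The labels do not say that replicate arrays came from separate cultures. The p-values therefore rest on array-to-array spread that may be technical. Fewer cells that express a gene and less RNA per cell cannot be told apart in such samples. The 5 epithelial markers CDH1, EPCAM, KRT8, KRT18 and KRT19 were all above the reference in Capan2, HPAC, HPAFII, HT29 and HCT-116, and 4 were in SW620, 1 in Panc1 and 0 in MiaPaca2. Of the 4 mesenchymal markers VIM, ZEB1, FN1 and CDH2, 3 were above the reference in Panc1, 2 in MiaPaca2 and 0 in the other lines. ZEB1 in Panc1 was only at 0.02. FN1 ran from -4.23 to -2.86 over the lines, with Panc1 at -3.42 and MiaPaca2 at -3.81, and CDH2 was at -3.45 in MiaPaca2. Of 4 endothelial markers, 2 were above the reference in 7 lines and 1 in HPAFII, and of 3 white blood cell markers 2 were above it in all 8 lines. Within these lists PECAM1 ran from -4.54 to -1.55 and PTPRC from -3.54 to -2.41, while CDH5 ran from 0.17 to 0.59, CD3E from 0.04 to 0.49 and CD14 from 0.20 to 1.77. The part of these markers in the results was not tested.

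Promoter sequences are shown for CLDN7, for the neighbouring genes CLDN3 and CLDN4, and for OCLN, which ran the other way in Panc1, because E-boxes in such windows are the known sites of SNAIL and ZEB proteins. RefSeq windows of GRCh38.p14, 250 bases before to 50 bases after a start, were found for 9 of the 10 genes, all but MARVELD3, in 13 windows of 300 bases. Capitals mark the E-box CAGGTG, read on both strands and so also as CACCTG.

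CLDN7, minus strand, chr17:7262429-7262728: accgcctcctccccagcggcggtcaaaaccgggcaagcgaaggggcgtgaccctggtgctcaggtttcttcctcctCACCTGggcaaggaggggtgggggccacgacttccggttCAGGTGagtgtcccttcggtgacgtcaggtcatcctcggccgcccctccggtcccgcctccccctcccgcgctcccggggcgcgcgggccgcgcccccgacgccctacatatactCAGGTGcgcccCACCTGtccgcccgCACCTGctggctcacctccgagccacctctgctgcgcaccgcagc
CLDN3, minus strand, chr7:73770221-73770520: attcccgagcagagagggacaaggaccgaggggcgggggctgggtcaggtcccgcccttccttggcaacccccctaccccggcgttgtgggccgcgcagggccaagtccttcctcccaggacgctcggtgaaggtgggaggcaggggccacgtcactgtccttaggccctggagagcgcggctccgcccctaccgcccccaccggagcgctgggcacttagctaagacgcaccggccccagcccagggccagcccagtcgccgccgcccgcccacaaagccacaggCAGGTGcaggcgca
CLDN4, plus strand, chr7:73830746-73831045: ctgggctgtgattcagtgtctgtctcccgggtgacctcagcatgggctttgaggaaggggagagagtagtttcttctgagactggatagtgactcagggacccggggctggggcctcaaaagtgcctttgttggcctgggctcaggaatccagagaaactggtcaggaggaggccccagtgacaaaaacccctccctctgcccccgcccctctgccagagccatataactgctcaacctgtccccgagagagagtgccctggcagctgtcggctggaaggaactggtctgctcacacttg
OCLN, plus strand, chr5:69492540-69492839: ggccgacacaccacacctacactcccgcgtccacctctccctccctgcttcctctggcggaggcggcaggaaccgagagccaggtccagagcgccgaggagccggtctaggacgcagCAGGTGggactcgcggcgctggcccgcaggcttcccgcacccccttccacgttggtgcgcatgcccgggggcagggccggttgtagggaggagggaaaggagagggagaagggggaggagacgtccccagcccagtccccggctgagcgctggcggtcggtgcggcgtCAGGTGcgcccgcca

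The E-box stood in 5 windows of 4 members, CLDN3, CLDN7, CLDN18 and OCLN, and in 20.6% of all 34943 RefSeq windows of this length. CLDN7 had 5 E-boxes in the window shown, beginning at positions -174, -135, -20, -9 and 6 from the start. Windows with 5 or more E-boxes made up 0.0916% of all windows, 32 in number. The other annotated start of CLDN7, at chr17:7263164-7263463, had none. CLDN3 had 1 E-box, beginning 37 bases after the start, and CLDN4 had none. OCLN had 2 in the window shown, at -133 and 36, and 1 at -33 in its other window. The Grainyhead motif AACCNGTT, in 1.73% of all windows, and the TATA box TATAAA, in 11.6%, were in 0 of the 13 windows. The GC box GGGCGG was in 7 of the 13 windows and in 44.9% of all windows, and no match of one motif overlapped a match of another. These are matches of letters, not measured sites, and they say nothing about binding in these lines.

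Across the 8 lines, 71 of the 80 line means of the 10 genes lay above the reference. The members differed widely in how much they varied. CLDN1, CLDN7, CLDN3 and MARVELD3 had ranges of 5.83, 5.16, 4.03 and 4.02 log2 units between the highest and the lowest line mean, and CLDN18 had a range of 0.75. The median range of the 10 genes was 2.68, beside 1.56 for all genes. A range of 2 or more was reached by 7 of the 10 genes and by 34.3% of all genes.

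**Figure D1:**
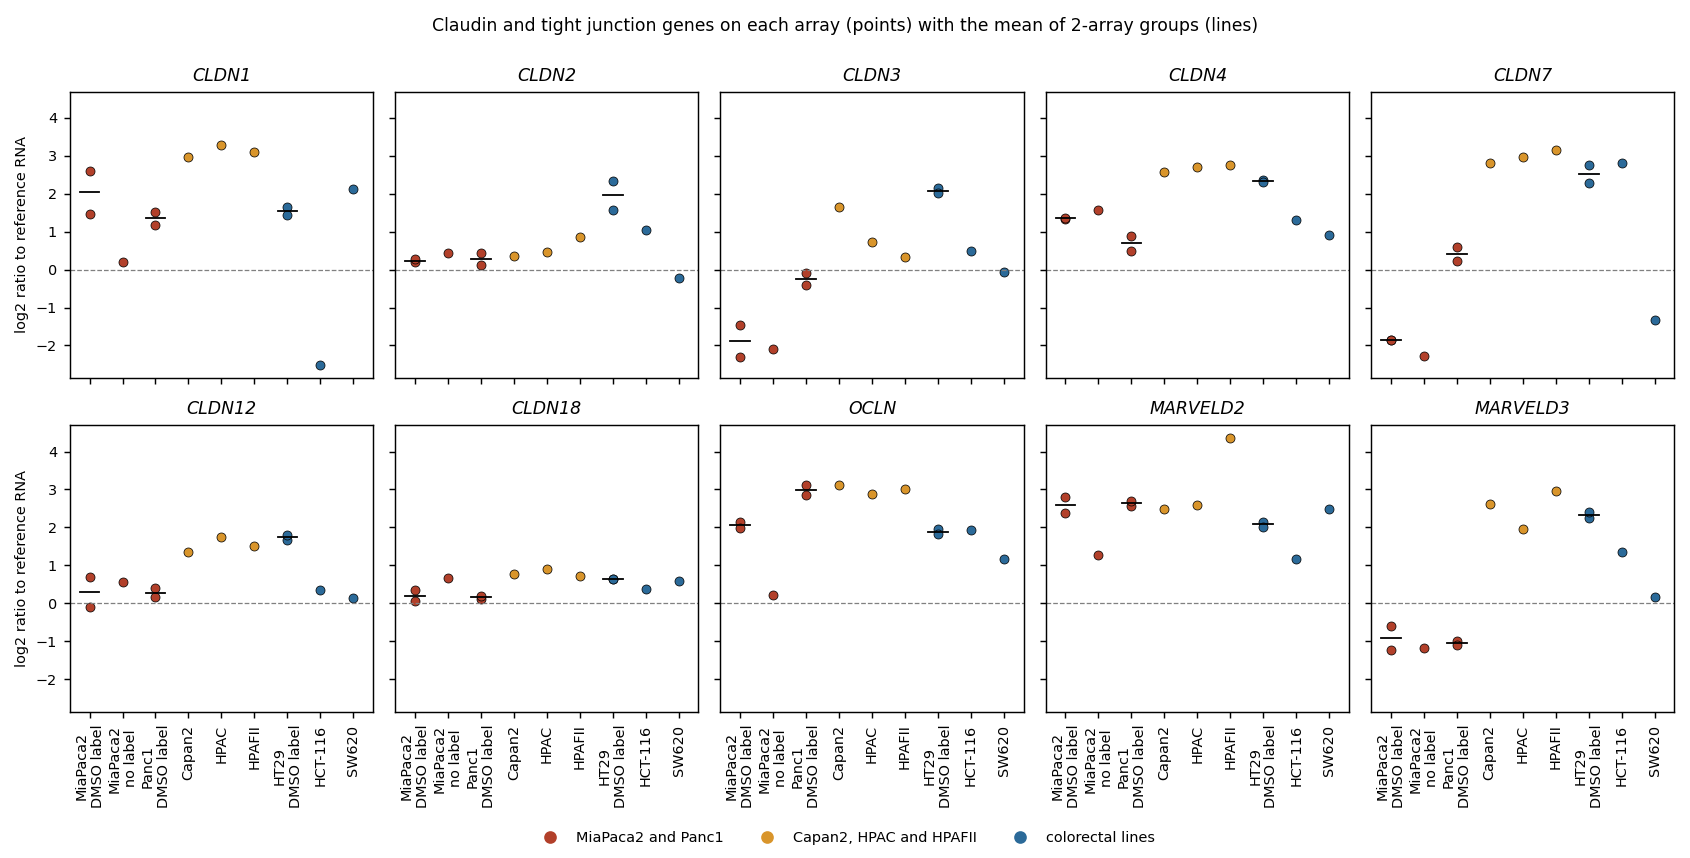
Log2 ratio to the reference RNA (y axis) of each of the 10 genes on each array (points), by cell line and media label (x axis), with lines at the mean of groups of 2 arrays. CLDN7 and MARVELD3 sat between 1.36 and 3.16 in Capan2, HPAC, HPAFII, HT29 and HCT-116 and at or below 0.60 in Panc1, MiaPaca2 and SW620, whereas OCLN and MARVELD2 stayed above 0 on all 12 arrays.

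The claudins CLDN3 and CLDN4, sealing claudins known as receptors of the Clostridium perfringens enterotoxin, lie side by side on chromosome 7. CLDN3 (chr7:73768997-73770270) and CLDN4 (chr7:73830996-73832690) are 60725 bases apart in RefSeq, with 0 annotated genes between them. CLDN3 was at -2.30 and -1.45 in MiaPaca2 with the DMSO label, -2.09 in MiaPaca2 without it, -0.09 and -0.41 in Panc1, 1.66 in Capan2, 0.73 in HPAC, 0.34 in HPAFII, 2.15 and 2.01 in HT29, 0.49 in HCT-116 and -0.07 in SW620. HT29 and Capan2 were highest, and all 3 MiaPaca2 arrays lay below every other array. CLDN4 was at 1.33 and 1.37 in MiaPaca2 with the DMSO label, 1.56 without it, 0.50 and 0.90 in Panc1, 2.57 in Capan2, 2.71 in HPAC, 2.75 in HPAFII, 2.36 and 2.32 in HT29, 1.32 in HCT-116 and 0.91 in SW620. CLDN4 stayed above the reference on every array and was lowest in Panc1, so the lines at the bottom of the 2 neighbouring genes were not the same. The lines were also put in order, with MiaPaca2 placed by its DMSO-labelled arrays. Intervals of lines with 1 array, here and below, assume that this array varies like those of the replicated groups. The 95% interval of the gap between neighbours left out 0 for CLDN3 only between Panc1 and MiaPaca2 (1.62, 0.92 to 2.33), and for CLDN4 only between HT29 and MiaPaca2 (0.99, 0.47 to 1.51).

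CLDN7 (chr17:7259903-7263213) encodes a claudin found along the sides of the cell as well as in the strand, where it binds EPCAM. It was at -1.85 and -1.86 in MiaPaca2 with the DMSO label, -2.27 without it, 0.24 and 0.60 in Panc1, 2.82 in Capan2, 2.98 in HPAC, 3.16 in HPAFII, 2.77 and 2.29 in HT29, 2.82 in HCT-116 and -1.33 in SW620. The lines fell into an upper set of 5, a middle position held by Panc1 alone, and SW620 and MiaPaca2 below the reference. The gap from HT29 down to Panc1 was 2.11 (1.53 to 2.68) and that from Panc1 down to SW620 was 1.75 (1.05 to 2.46), and no other gap between neighbouring lines left out 0. Within the colorectal lines, SW620 was 3.86 below HT29, a difference of -3.86 with a 95% interval of -4.57 to -3.15, while HCT-116 differed from HT29 by 0.29 (-0.42 to 1.00).

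MARVELD3 (chr16:71626184-71641965), a MARVEL protein of the strand, followed a like order. It was at -1.24 and -0.60 in MiaPaca2 with the DMSO label, -1.18 without it, -0.99 and -1.10 in Panc1, 2.62 in Capan2, 1.95 in HPAC, 2.97 in HPAFII, 2.26 and 2.41 in HT29, 1.36 in HCT-116 and 0.17 in SW620. Panc1 and MiaPaca2 were below the reference on all 5 arrays and the other lines above it. The gap from HCT-116 to SW620 was 1.19 (0.34 to 2.04) and that from SW620 to MiaPaca2 was 1.09 (0.35 to 1.83), while MiaPaca2 and Panc1 did not differ beyond their interval (0.13, -0.48 to 0.73).

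OCLN (chr5:69492547-69558104), which encodes occludin, was above the reference on all 12 arrays. Its level was 2.14 and 1.99 in MiaPaca2 with the DMSO label, 0.21 in MiaPaca2 without it, 2.85 and 3.12 in Panc1, 3.12 in Capan2, 2.88 in HPAC, 3.0 in HPAFII, 1.95 and 1.83 in HT29, 1.92 in HCT-116 and 1.16 in SW620. Panc1 thus stood with Capan2, HPAC and HPAFII for this gene, with gaps of 0.02 to 0.12 between them whose intervals held 0. That grouping depends on the scaling. With quantile normalization OCLN was at 2.79 in Capan2, 2.47 in HPAC and 2.31 in HPAFII, beside 2.24 in HCT-116. The Panc1 arrays carry the DMSO label and those of Capan2, HPAC and HPAFII do not, so line and label cannot be told apart here. The MiaPaca2 array without the label, at 0.21, was the lowest of all 12. OCLNP1, a transcribed pseudogene of occludin, is annotated on the same chromosome, and whether its RNA binds the OCLN features was not tested.

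MARVELD2 (chr5:69415116-69444330) encodes tricellulin. It was at 2.38 and 2.80 in MiaPaca2 with the DMSO label, 1.26 without it, 2.56 and 2.70 in Panc1, 2.49 in Capan2, 2.58 in HPAC, 4.35 in HPAFII, 2.14 and 2.02 in HT29, 1.16 in HCT-116 and 2.48 in SW620. The single HPAFII array was highest, 1.72 (1.07 to 2.38) above Panc1. With quantile normalization HPAFII was at 3.34 and SW620 at 3.0. HCT-116 was lowest, with a gap of 0.92 (0.27 to 1.58) to HT29, but the MiaPaca2 array without the label, which is not in that order, lay beside it at 1.26.

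CLDN1 (chr3:190305707-190322446) encodes a sealing claudin without which the skin barrier of mice fails. It was at 2.61 and 1.47 in MiaPaca2 with the DMSO label, 0.21 without it, 1.19 and 1.53 in Panc1, 2.98 in Capan2, 3.30 in HPAC, 3.11 in HPAFII, 1.64 and 1.44 in HT29, -2.52 in HCT-116 and 2.14 in SW620. HCT-116 was the only array below the reference, 4.07 log2 units below HT29 (difference -4.07, 95% interval -5.09 to -3.05). Its neighbour in the order was Panc1, at a gap of 3.89 (2.87 to 4.91), and no other gap between neighbouring lines left out 0. The 2 DMSO-labelled MiaPaca2 arrays were 1.15 apart, the widest gap within a group among the 10 genes.

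The other 3 claudins, CLDN2, CLDN12 and CLDN18, had ranges of 2.17, 1.6 and 0.75 between line means, beside 2.05 for CLDN4. CLDN2 (chrX:106900164-106930861), which forms a pore for cations and water, was highest in HT29 at 2.35 and 1.57, and ran from -0.21 in SW620 to 1.05 in HCT-116 on the other arrays. HT29 was 0.91 above HCT-116 (0.09 to 1.73), and no other gap between neighbouring lines left out 0. CLDN12 (chr7:90403461-90415954), a claudin that lacks the PDZ-binding end of most claudins, was between -0.10 and 0.69 in MiaPaca2, Panc1, HCT-116 and SW620, and between 1.34 and 1.80 in Capan2, HPAC, HPAFII and HT29. These sets were drawn from the same values, so the space between them is a description and not a test. By the first feature of CLDN12 the sets overlapped, with MiaPaca2 DMSO replicate 1 at 1.228 and Capan2 at 0.828. CLDN18 (chr3:137998816-138033649), the claudin of stomach and lung, stayed between 0.05 and 0.90 on all arrays, and 0 of its 7 gaps between neighbouring lines left out 0. Between lines farther apart in the order, HPAC was above Panc1 by 0.75 (0.14 to 1.36). It was above DMSO-labelled MiaPaca2 by 0.70 (0.09 to 1.32). With ratios this close to 0 and no intensities, a gene near background in both channels could not be told from one expressed at the reference level.

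Panc1, MiaPaca2 and HT29 had 2 DMSO-labelled arrays each, so their differences could be set against the spread between arrays. In Panc1, 6 of the 10 genes were lower than in HT29 and 1 was higher at a limma adjusted p under 0.05, where 15.9% of all genes were lower and 21.4% higher. MARVELD3 averaged -1.04 ± 0.08 in Panc1 and 2.34 ± 0.10 in HT29 (SD, n = 2 arrays each), a log2 difference of -3.38 (SE 0.263, limma, adjusted p = 3.843e-05). CLDN3 averaged -0.25 ± 0.22 in Panc1 and 2.08 ± 0.10 in HT29, a difference of -2.33 (SE 0.305, limma, adjusted p = 0.0006188). CLDN7 averaged 0.42 ± 0.25 in Panc1 and 2.53 ± 0.34 in HT29, a difference of -2.11 (SE 0.252, limma, adjusted p = 0.0003809). The arrays of the 2 lines did not overlap for any of these genes, which describes the same values and is not separate evidence. The pore claudin CLDN2 differed by -1.68, the sealing claudin CLDN4 by -1.64 and CLDN12 by -1.46 (limma, adjusted p from 0.0008414 to 0.005015). OCLN ran the other way. It averaged 2.98 ± 0.19 in Panc1 and 1.89 ± 0.08 in HT29, a difference of 1.09 (SE 0.22, limma, adjusted p = 0.005436). Without Panc1 replicate 4 that difference was 0.96 and no longer passed (limma, adjusted p = 0.06653), and over the 12 alternatives its adjusted p ran from 0.004804 to 0.06653. MARVELD2 at 0.55, CLDN18 at -0.48 and CLDN1 at -0.18 did not pass (limma, adjusted p from 0.1025 to 0.7445). The median difference of the 10 genes was -1.55, beside 0.07 for all genes.

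In MiaPaca2, the same 6 genes as in Panc1 were lower than in HT29 and 0 of the 10 were higher, by limma or at an unadjusted p under 0.05. Over all genes, 14.5% were lower and 17.4% higher. Both comparisons use the same HT29 arrays, so their agreement is not independent. CLDN7 averaged -1.86 ± 0.01 in MiaPaca2 and 2.53 ± 0.34 in HT29 (SD, n = 2 arrays each), a difference of -4.39 (SE 0.252, limma, adjusted p = 9.995e-06). CLDN3 averaged -1.88 ± 0.60 in MiaPaca2 and 2.08 ± 0.10 in HT29, a difference of -3.96 (SE 0.305, limma, adjusted p = 4.28e-05), and MARVELD3 differed by -3.26 (SE 0.263, limma, adjusted p = 5.402e-05). Every MiaPaca2 array lay below both HT29 arrays for these genes, again a description and not separate evidence. CLDN2 differed by -1.72, CLDN12 by -1.44 and CLDN4 by -0.99 (limma, adjusted p from 0.002711 to 0.0114). The CLDN4 call was lost without HT29 replicate 2 (-0.97, limma, adjusted p = 0.05033) and with the replicate number as a block (-0.86, adjusted p = 0.0671), in a range of 0.01033 to 0.0671 over its alternatives. The MARVEL genes OCLN at 0.17 and MARVELD2 at 0.51 and the claudins CLDN1 at 0.50 and CLDN18 at -0.44 did not pass (limma, adjusted p from 0.1379 to 0.6062). MARVELD2 passed with quantile normalization at 0.74, and CLDN1 passed without MiaPaca2 replicate 2 at 1.07 but was -0.08 without replicate 1. The median difference was -1.22, beside 0.03 for all genes.

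Between the pancreatic lines with replicates, 3 of the 10 genes were lower in MiaPaca2 than in Panc1 and 0 were higher, where 11.3% of all genes were lower and 7.4% higher. CLDN4 was higher at an unadjusted p under 0.05 alone. These arrays are again those of the comparisons with HT29. CLDN7 was lower by a log2 difference of -2.28 (SE 0.252, limma, adjusted p = 0.0005727) and CLDN3 by one of -1.62 (SE 0.305, limma, adjusted p = 0.007987). As averages over features, neither gene's arrays overlapped between the lines, which is not separate evidence. By the second CLDN3 feature the difference was -0.22 and the arrays overlapped. That feature was at -0.61 and 0.23 in MiaPaca2 and at 0.15 and -0.10 in Panc1. CLDN3 was at -1.47 without Panc1 replicate 1 and just missed the threshold (limma, adjusted p = 0.05259). OCLN averaged 2.06 ± 0.11 in MiaPaca2 and 2.98 ± 0.19 in Panc1 (SD, n = 2 arrays each), a difference of -0.92 (SE 0.22, limma, adjusted p = 0.02216). The OCLN call was lost under 6 of 13 alternatives, with adjusted p up to 0.2081: leaving out either Panc1 array or MiaPaca2 replicate 2, quantile normalization (-0.51), the replicate block (-0.89), and the 3 MiaPaca2 arrays as 1 group (-1.54). MARVELD3, the gene farthest below HT29 in Panc1, differed between MiaPaca2 and Panc1 by 0.13 with a 95% interval of -0.48 to 0.73. CLDN4 at 0.65 and CLDN1 at 0.67 did not pass (limma, adjusted p = 0.08781 and 0.2502), although CLDN1 passed without MiaPaca2 replicate 2 at 1.25. CLDN2, CLDN12, CLDN18 and MARVELD2 lay between -0.05 and 0.04.

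**Figure D2:**
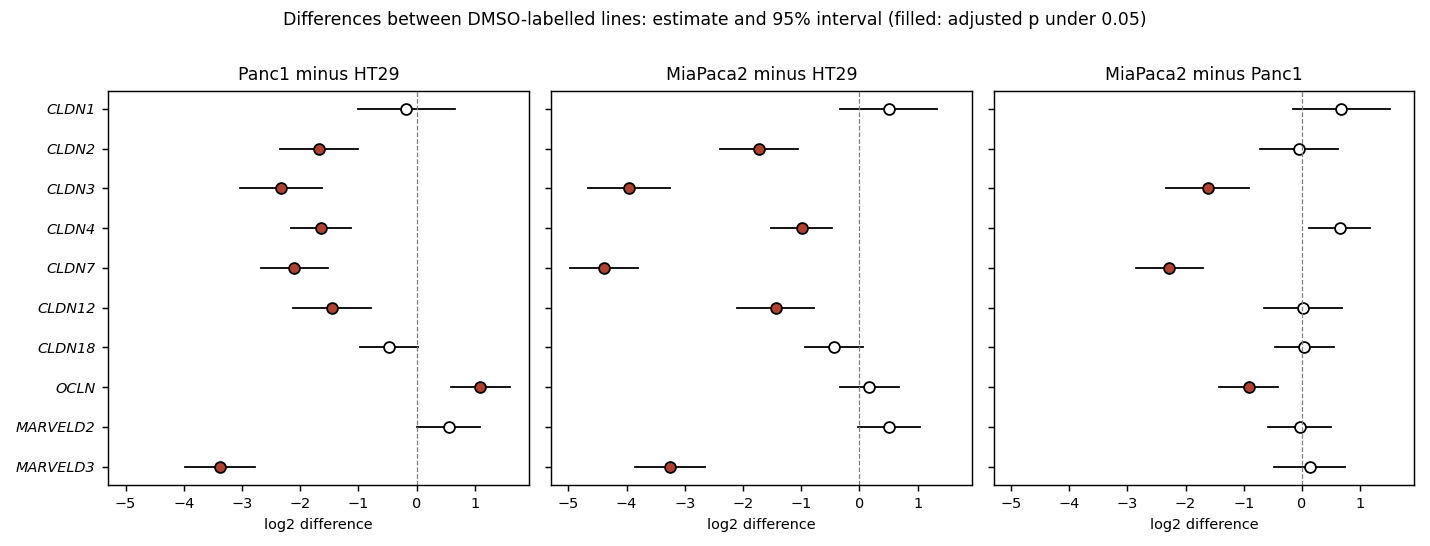
Log2 difference (x axis) of the 10 genes (y axis) in the 3 comparisons of DMSO-labelled lines, first line minus second, with 95% intervals; filled points have a limma adjusted p under 0.05. CLDN7 and CLDN3 were lower in all 3 panels, although CLDN3 in MiaPaca2 minus Panc1 rests on 1 of its 2 features. MARVELD3 was lower only against HT29. OCLN was above 0 in Panc1 minus HT29 and below 0 in MiaPaca2 minus Panc1.

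CDH1, which encodes the adherens junction protein E-cadherin, was lower in the same comparisons. Its log2 difference was -4.62 in Panc1 minus HT29, -7.02 in MiaPaca2 minus HT29 and -2.40 in MiaPaca2 minus Panc1 (limma, adjusted p from 3.75e-06 to 0.001107). The median level of the 5 epithelial markers was -0.85 in MiaPaca2, -0.30 in Panc1 and 1.41 in HT29. That of the 4 mesenchymal markers was -1.28 in MiaPaca2, 0.20 in Panc1 and -3.55 in HT29. The markers of that list were unlike. In the same order of lines VIM was at 1.59, 1.70 and -4.71, and FN1 at -3.81, -3.42 and -3.60. The part of these markers in the claudin differences was not tested.

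MiaPaca2 arrays with and without the DMSO label were compared on 2 arrays against 1, with the single array assumed to vary like the replicated groups. OCLN was the only one of the 10 genes that passed, at 2.14 and 1.99 with the DMSO label and 0.21 without it, a difference of 1.85 (SE 0.27, limma, adjusted p = 0.03333). Over all genes, 0.3% were higher and 0.3% lower. All 3 features of OCLN showed this gap, with differences of 1.70, 1.90 and 1.94. The call was lost under 8 of 12 alternatives, among them leaving out any DMSO-labelled array other than MiaPaca2 replicate 2, with differences of 1.77 to 2.14 and adjusted p from 0.02472 to 0.1007 over the 12. CLDN1 at 1.82 and MARVELD2 at 1.33 were on the same side without passing (limma, adjusted p = 0.1048 and 0.08732), and CLDN1 passed at 2.40 without MiaPaca2 DMSO replicate 2. The other 7 genes lay between -0.46 and 0.42, CLDN7 at 0.42 and CLDN3 at 0.22 among them. The label cannot be told apart from anything else that set that array apart.

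Features of the same gene did not always give the same size of difference. The 2 features of CLDN3 correlated at 0.89 over the 12 arrays, but in MiaPaca2 they were far apart. The first was at -3.99 and -3.13 in MiaPaca2 with the DMSO label and -3.82 without it, and the second at -0.61, 0.23 and -0.36. MiaPaca2 minus HT29 was therefore -5.57 by the first feature and -2.34 by the second, and MiaPaca2 minus Panc1 was -3.03 and -0.22. The lower CLDN3 level in MiaPaca2 than in Panc1 thus rests on 1 of the 2 features, while that against HT29 is in both. MARVELD3 had 3 features. The first gave Panc1 minus HT29 as -1.11, and the other features, which correlated at 0.98 with each other, gave -4.72 and -4.32. The 2 features of CLDN12 correlated at 0.63 and gave Panc1 minus HT29 as -0.81 and -2.11. The 3 features of OCLN correlated at 0.90 to 0.98, and the 2 of CLDN1 at 0.93, with HCT-116 at -3.54 and -1.51. CLDN2, CLDN4, CLDN7, CLDN18 and MARVELD2 rest on 1 feature each. Which transcript each feature reads was not tested.

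**Figure D3:**
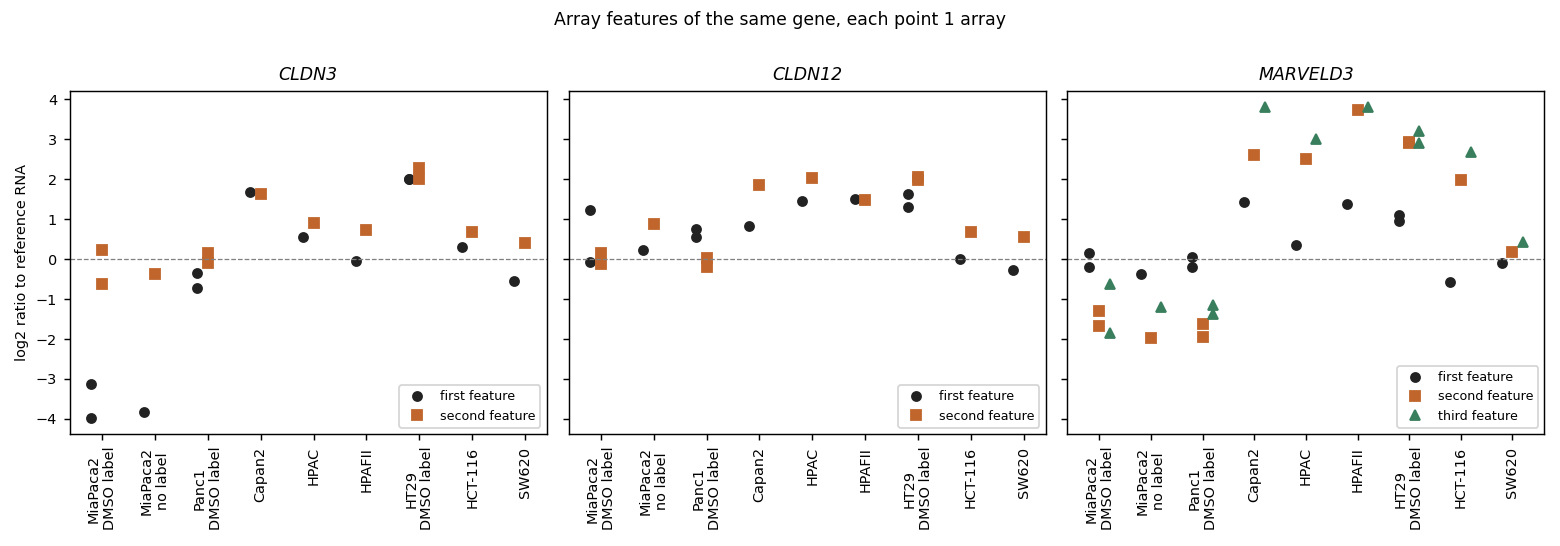
Log2 ratio to the reference RNA (y axis) of the separate array features of CLDN3, CLDN12 and MARVELD3 on each array (points), by cell line and media label (x axis). In MiaPaca2 the first CLDN3 feature lay between -3.99 and -3.13 and the second between -0.61 and 0.23; for MARVELD3 the first feature moved less than the other features.

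Pancreatic and colorectal lines were compared on the 8 line means, each line counting once. None of the 10 genes passed: the limma test called 0, and 1, OCLN, had an unadjusted p under 0.05. Over all genes, 0.0218% were higher and 0% lower. OCLN averaged 2.69 in the 5 pancreatic lines and 1.66 in the 3 colorectal lines, a difference of 1.03 (SE 0.422, limma, adjusted p = 0.5901). CLDN1 had the greatest difference at 2.05 (SE 1.05, limma, adjusted p = 0.6631), and without HCT-116 it was 0.59. CLDN7 differed by 0.14 with a 95% interval from -3.12 to 3.40, since each tissue held lines at both ends. The line means of the tissues overlapped for all 10 genes, where 3.15% of all genes lay wholly higher and 2.63% wholly lower in pancreatic lines.

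Within the pancreatic lines, Panc1 and MiaPaca2, catalogued as poorly differentiated, were set against Capan2, HPAC and HPAFII, catalogued as moderately to well differentiated. The grade is not a label of the samples, and the split was made with earlier results known. The limma test called 0 of the 10 genes, whereas 6 were lower at an unadjusted p under 0.05. Over all genes 0.158% were higher and 0.409% lower. All 10 differences were below 0, from -3.77 for CLDN7 to -0.26 for CLDN2, with a median of -1.41 beside 0.06 for all genes. MARVELD3 was at -1.01 and -1.04 in MiaPaca2 and Panc1 and at 1.95 to 2.97 in the other 3 lines, a difference of -3.54 (SE 0.61, limma, adjusted p = 0.07015). It passed under 4 of 15 alternatives, among them leaving out HT29 or SW620 (-3.54 each), with adjusted p from 0.003562 to 0.2293 over all of them. For 8 of the 10 genes both line means of Panc1 and MiaPaca2 lay below all 3 others, as they did for 15.2% of all genes, and 19.3% lay wholly higher. The exceptions were OCLN, with Panc1 at 2.98 inside the range of 2.88 to 3.12, and MARVELD2, with Panc1 at 2.63 above Capan2 and HPAC. For CLDN2 the line means were close, at 0.29 and 0.30 against 0.36 in Capan2. Its single arrays overlapped, with Panc1 replicate 1 at 0.44 and MiaPaca2 without the label at 0.43. All DMSO-labelled pancreatic arrays were from Panc1 and MiaPaca2, so the media label and this split cannot be told apart for Panc1. For MiaPaca2, 1 array lacked the label. The part of the label in this split was not tested.

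The members' line means were set beside each other over the 8 lines, as a description, since the lines fall into clusters and all share 1 reference RNA. CLDN4 and CLDN12 had the highest correlation of the 45 pairs, at 0.94, and CLDN1 and CLDN2 the lowest, at -0.29. The neighbours CLDN3 and CLDN4 correlated at 0.56. OCLN and MARVELD2, 48216 bases apart on chromosome 5 with 0 protein-coding genes annotated between them, correlated at 0.50. With CDH1, MARVELD3 correlated at 0.96, CLDN7 at 0.95, CLDN3 at 0.84, CLDN4 at 0.82 and CLDN12 at 0.81, whereas CLDN2 was at 0.48, MARVELD2 at 0.27 and CLDN1 at 0.23. Among 6288 other genes whose line means spanned 2 or more log2 units, those most like CLDN7 were HS3ST1, FAM107B and AP1M2 (0.986, 0.979 and 0.977). Those most like MARVELD3 were ICA1, C1orf210 and FAM110C (0.993, 0.987 and 0.98), and most like CLDN3 were NR1H3, ARHGEF16 and EPS8L1 (0.973, 0.972 and 0.961). For CLDN4 they were TSPAN1, DTX4 and CAPN8 (0.975, 0.972 and 0.969), and for CLDN1 ALG10, BARD1 and G0S2 (0.985, 0.97 and 0.964). CLDN2 was most like TMEM191A, SMPD3 and PFDN4 (0.969, 0.947 and 0.932), and MARVELD2 most like DIP2B, EHD1 and CIDECP1 (0.962, 0.93 and 0.921). With 8 points and 6288 genes searched, high correlations can arise by search alone.

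Of 17 other claudins listed, 13 were measured. The shares of all genes called higher and lower were 21.4% and 15.9% in Panc1 minus HT29. They were 17.4% and 14.5% in MiaPaca2 minus HT29, and 7.4% and 11.3% in MiaPaca2 minus Panc1. In Panc1 minus HT29, 3 were higher and the other 10 were not called: CLDN10, a paracellular ion pore, by 4.91, CLDN23 by 2.13 and CLDN14 by 1.57 (limma, adjusted p from 9.875e-06 to 0.014). CLDN10 averaged 1.91 in Panc1 and -3.01 in HT29. In MiaPaca2 minus HT29, CLDN11, the claudin of myelin and of the testis barrier, was higher by 2.63 (limma, adjusted p = 0.000148) and CLDN14 by 1.32 (limma, adjusted p = 0.03311), and the other 11 were not called. In MiaPaca2 minus Panc1, CLDN11 was higher by 2.46, and CLDN10 and CLDN23 differed by -4.73 and -2.82 (limma, adjusted p from 2.891e-05 to 0.0004194). The CLDN14 calls were lost without HT29 replicate 4, at 1.05 in Panc1 and 0.80 in MiaPaca2, and without Panc1 replicate 1 (1.53) or MiaPaca2 replicate 2 (0.89). CLDN14 line means were below the reference in every line, from -2.8 in Capan2 to -0.89 in Panc1. The 13 claudins had median differences of 0.16, -0.30 and -0.28 in the 3 comparisons.

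Of 12 scaffold genes listed, 8 were measured. Beside the counts below, 21.4% of all genes were higher and 15.9% lower in Panc1 minus HT29. The shares were 17.4% and 14.5% in MiaPaca2 minus HT29, and 7.4% and 11.3% in MiaPaca2 minus Panc1. TJP1, which encodes ZO-1, was not called in any of the 3 comparisons, and its line means ran from -0.28 in SW620 to 2.01 in HPAFII. In Panc1 minus HT29, 2 scaffolds were higher and 2 lower. MPDZ, a multi-PDZ adaptor, was higher by 4.60 and TJAP1 by 1.02, and PATJ, of the Crumbs polarity complex, and CGN, the cytoskeletal linker cingulin, differed by -1.76 and -1.21 (limma, adjusted p from 4.374e-06 to 0.02231). The line means of MPDZ were below the reference in every line, at -0.54 in Panc1 and -5.14 in HT29. In MiaPaca2 minus HT29, 2 were higher, YBX3 by 0.99 and MPDZ by 0.74, and 2 lower, CGN by a difference of -1.75 and PATJ by one of -1.17 (limma, adjusted p from 0.0004633 to 0.03485). In MiaPaca2 minus Panc1, 1 was higher, YBX3 by 1.60, and 2 lower, MPDZ at -3.85 and MAGI3 at -0.91. YBX3 against HT29 lost its call without HT29 replicate 4 (0.81) or MiaPaca2 replicate 2 (0.76), and TJAP1 without HT29 replicate 2 (0.70) or either Panc1 array (0.93 and 1.10). Calls were also lost for MPDZ in MiaPaca2 minus HT29 under 8 alternatives, where it was 0.37 with quantile normalization, and for MAGI3 in MiaPaca2 minus Panc1 under 6 alternatives, at -1.51 to -0.80. With quantile normalization, 3 scaffolds rather than 2 were lower in Panc1 than in HT29, and 1 rather than 2 was higher in MiaPaca2.

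Of 9 immunoglobulin-type and angulin genes listed, 7 were measured. Beside the counts below, 21.4% of all genes were higher and 15.9% lower in Panc1 minus HT29. The shares were 17.4% and 14.5% in MiaPaca2 minus HT29, and 7.4% and 11.3% in MiaPaca2 minus Panc1. JAM3, an adhesion molecule of endothelial and other cells, averaged 2.34 in Panc1 and -2.75 in HT29, a difference of 5.09 (SE 0.249, limma, adjusted p = 4.427e-06), and it was higher in MiaPaca2 than in HT29 by 3.73. JAM2 was higher by 1.30 in Panc1 and by 2.45 in MiaPaca2, and CLMP by 2.17 in Panc1, although JAM2 and CLMP stayed below the reference in all 8 lines. CXADR, the coxsackievirus and adenovirus receptor, differed by -1.81 in Panc1 and -2.63 in MiaPaca2. LSR, the angulin that recruits tricellulin to cell corners, differed by -2.11 in MiaPaca2 minus HT29 and by -1.27 in MiaPaca2 minus Panc1 (limma, adjusted p = 0.0004277 and 0.01013), the second a call lost without either Panc1 array (-1.33 and -1.21). In all, 3 were higher and 2 lower in Panc1 than in HT29, or 2 and 3 with quantile normalization, which moved JAM2 to 0.58. In MiaPaca2, 2 were higher and 3 lower than in HT29, and 1 was higher and 3 lower than in Panc1, where JAM2 (1.02) and JAM3 (-1.30) were not called without Panc1 replicate 1. JAM3 was also higher in Panc1 and MiaPaca2 than in Capan2, HPAC and HPAFII, by 4.69 (SE 0.481, limma, adjusted p = 0.01542), a call lost without HPAC (4.79) or without HPAFII (4.41).

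Of 17 transcription factors known to act on junction genes, 14 were measured. Beside the counts below, 21.4% of all genes were higher and 15.9% lower in Panc1 minus HT29. The shares were 17.4% and 14.5% in MiaPaca2 minus HT29, and 7.4% and 11.3% in MiaPaca2 minus Panc1. GRHL2, a Grainyhead-like activator of CDH1 and claudins, was at -3.44 and -3.06 in MiaPaca2 with the DMSO label, -3.69 without it, -3.17 and -3.47 in Panc1, 2.77 in Capan2, 3.46 in HPAC, 1.38 in HPAFII, 1.66 and 2.33 in HT29, 0.80 in HCT-116 and -3.39 in SW620. MiaPaca2, Panc1 and SW620 were below the reference and the other 5 lines above it, the lines that also separated for CLDN7, except that Panc1 stood at 0.24 and 0.60 for CLDN7. The line means of OVOL1 and ELF3 split at the reference in the same way. Those of the other measured factors did not, with KLF5 at 2.12 and OVOL2 at 2.0 in SW620. In Panc1 minus HT29, 3 factors were higher, 2 with quantile normalization, and 6 lower, with KLF5 at -5.49, GRHL2 at -5.31, OVOL1 at -3.16 and SNAI1, the repressor Snail, at 3.53 (limma, adjusted p from 2.603e-06 to 3.331e-05). In MiaPaca2 minus HT29, 2 were higher and 7 lower, with GRHL2 at -5.24, KLF5 at -4.92, ELF3 at -3.37 and the repressor ZEB1 at 3.22 (limma, adjusted p from 3.75e-06 to 0.0001272). In MiaPaca2 minus Panc1, ZEB1 was higher by 1.44, and SNAI1 and GRHL3 differed by -1.45 and -1.01. Without Panc1 replicate 1 the SNAI1 call was lost (-1.32), without Panc1 replicate 4 (1.27) or MiaPaca2 replicate 1 (1.05) that of ZEB1, and without either Panc1 array or MiaPaca2 replicate 2 that of GRHL3. ZEB1 averaged 1.46 in MiaPaca2 with the DMSO label, 0.02 in Panc1 and -1.76 in HT29, and was at -0.26 in MiaPaca2 without the label. ELF3 was at 0.80 on the MiaPaca2 array without the label and averaged -2.36 with it, a difference of -3.16 (SE 0.374, limma, adjusted p = 0.01894) that was -2.80 and not called without MiaPaca2 DMSO replicate 1. Its lower level in MiaPaca2 than in HT29 was not called with the 3 MiaPaca2 arrays as 1 group (-2.32). MAGI3, a scaffold, was higher with the label by 1.81 (SE 0.267, limma, adjusted p = 0.03427), a call lost under 7 alternatives. Of all genes, 0.409% were lower in Panc1 and MiaPaca2 than in Capan2, HPAC and HPAFII. The 3 factors lower in that split were KLF5, ELF3 and OVOL2, at -5.34, -3.88 and -3.56 (limma, adjusted p from 0.01314 to 0.03666). Without HPAC none of the 3 was called (-5.14, -3.82 and -3.54). Leaving out Capan2 or HPAFII also lost the calls of ELF3 (-4.07 and -3.76) and OVOL2 (-3.48 and -3.67). The ELF3 call was lost with cell line as a random block (-3.87). The OVOL2 call was lost with quantile normalization (-2.96) and without SW620 (-3.56). With Panc1 or MiaPaca2 left out, ELF3 was at -3.52 and -4.25 and OVOL2 at -3.6 and -3.53. The part of these factors in the claudin differences was not tested.

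**Figure D4:**
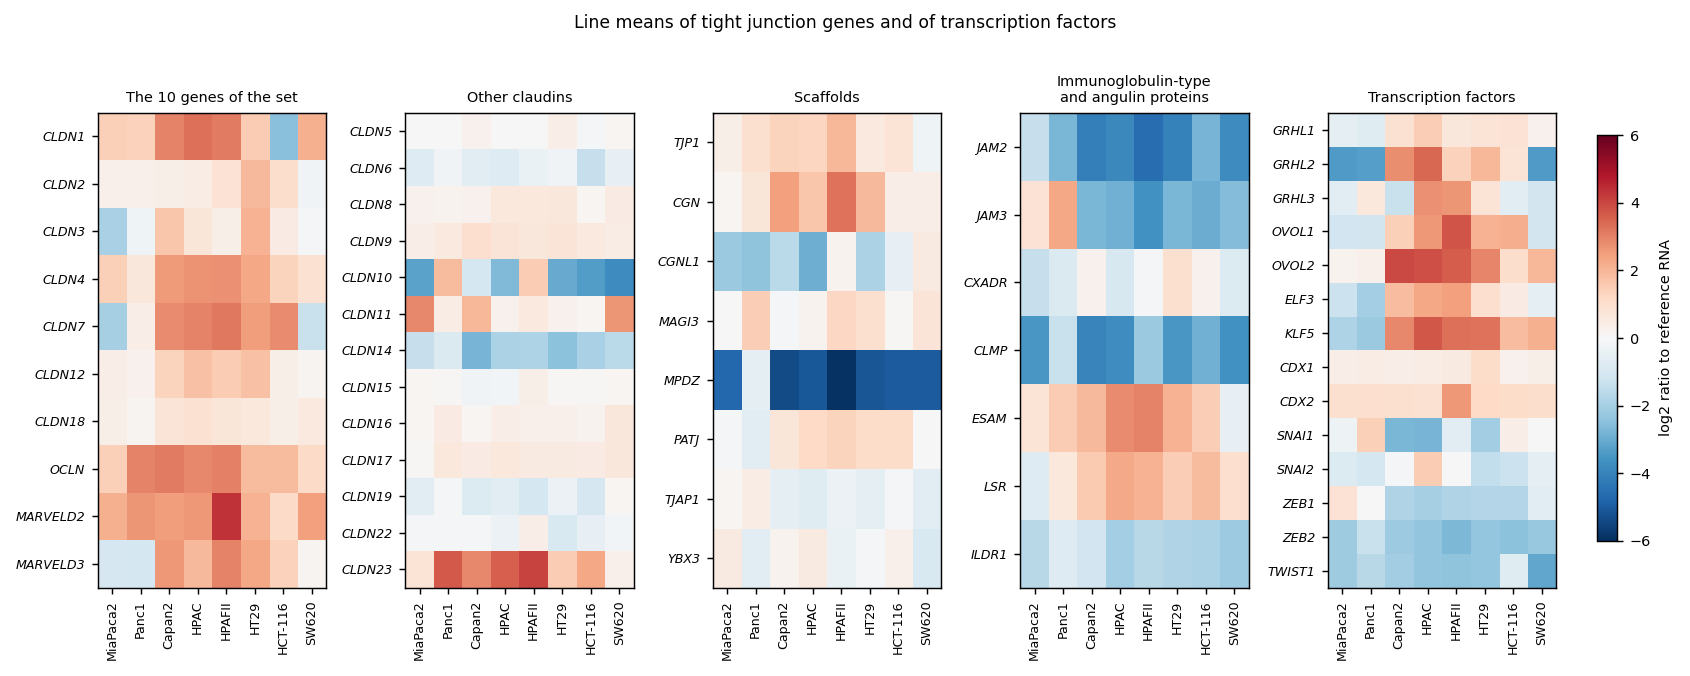
Line means (colour, log2 ratio to the reference RNA, scale from -6 to 6) of the 10 genes and of the measured genes of the 4 lists (rows) in the 8 cell lines (columns). CLDN7, MARVELD3, GRHL2 and OVOL1 change sign or level between Panc1, MiaPaca2 and SW620 and the other lines, with GRHL2 at -3.40, -3.32 and -3.39 in MiaPaca2, Panc1 and SW620. KLF5 and OVOL2 were above the reference in SW620.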

How the data were processed

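The deposited values were taken as log2 ratios of cell line RNA (Cy5) over reference RNA (Cy3), per the labels' dye fields. For the log base, the centring, the direction, and how the authors corrected background and normalized, the answer is the same: not given in the sources used here. The values ran from -10.71 to 9.61 with array medians from -0.001 to 0.042, and they were used without further normalization. No dyes were swapped, so a dye bias of a feature cannot be told from its level, although it cancels between lines. Of 45220 features, 31332 had 1 gene symbol, 93 several and 13795 none. Symbols were updated through the gene ID to RefSeq (GRCh38.p14) for 31291 features. Features of a gene were averaged, giving 18334 genes.

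Groups came from the labels. Differences were fitted over all genes with limma 3.58.1 (R 4.3.3), on 12 arrays in 9 groups for single lines and on 8 line means for sets of lines, where MiaPaca2 was the mean of its 3 arrays. Benjamini-Hochberg adjustment ran over all 18334 genes, a gene was called at an adjusted p under 0.05, and intervals are at 95%. The test was checked on simulated data. Lines were assigned to a tissue and a grade from cell line catalogues. Alternatives were another centring, quantile normalization, each gene's most variable feature in place of the mean, only genes with an SD above the median, robust eBayes, the replicate number as a block, another handling of the MiaPaca2 arrays, cell line as a random block, and each array or line left out. The members and the lists were chosen with earlier results of these data known. From each list, up to 4 called genes with the greatest difference per comparison were named; TJP1 was also named, outside this rule and after its values were seen. For each member with a range of at least 2, the 3 genes with the highest Pearson correlation over the line means were named. Figures were drawn with matplotlib 3.10.9.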

Additional observations from a re-analysis of the deposited data

Results flagged for a closer look

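Among the 5 pancreatic line means, OCLN in MiaPaca2, at 1.44, stood apart from the others, of which HPAC at 2.88 was the nearest. The gap to it was 0.854 of the whole range of the 5 lines, above Dixon's 95% critical value of 0.71. That mean holds the MiaPaca2 array without a media label at 0.21, and the DMSO-labelled arrays alone averaged 2.06. MARVELD2 in HPAFII, at 4.35 on a single array, stood above the nearest line, Panc1 at 2.63, by a gap of 0.782 of the range. Chance alone sets off this test in about 1 of 20 groups of samples.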

How the results depend on the processing

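Of the 80 line means, 0 changed sign with another centring or with quantile normalization. With the most variable feature 2 did, CLDN3 in HPAFII and CLDN12 in Panc1. The sizes of levels moved more. MARVELD3 in HPAFII, for example, was 2.97 as deposited and 2.27 with quantile normalization. No called difference of the 10 genes changed sign under any alternative run. Of the differences of single genes under alternatives, 739 kept their side of the threshold and their sign, 18 lost their call, 8 gained one and 29 changed sign. With the replicate number as a block, 7, 5 and 2 of the 10 genes were called in Panc1 minus HT29, MiaPaca2 minus HT29 and MiaPaca2 minus Panc1. Arrays with the same number correlated in their deviations at -0.134 to 0.144, each pair of lines sharing 1 number, so the numbers were not taken to pair the arrays. Between MiaPaca2 with and without the DMSO label the count of 1 became 0 with genes of SD above the median, 0 with the most variable feature and 0 with the replicate block, and ran from 0 to 2 with 1 array left out. In MiaPaca2 minus Panc1 it ran from 1 to 3 with 1 array left out. In Panc1 and MiaPaca2 minus Capan2, HPAC and HPAFII the count of 0 became 1 with cell line as a random block and 1 with genes of SD above the median, and ran from 0 to 1 with 1 line left out. Uncalled differences changed sign as follows. With the 3 MiaPaca2 arrays as 1 group, CLDN1 was -0.11 and OCLN -0.45 against HT29, and CLDN2 was 0.02 against Panc1. For the media label CLDN3 was -0.11 with quantile normalization and -0.04 with the replicate block. For pancreatic minus colorectal lines CLDN7 was -0.13 with the random block and -0.33 with quantile normalization, and MARVELD2 was 0.44 in MiaPaca2 minus Panc1 with quantile normalization. With 1 array left out, CLDN1 ran from -0.08 to 1.07 in MiaPaca2 minus HT29. For the media label CLDN12 ran from -0.66 to 0.13, CLDN3 from -0.21 to 0.64 and MARVELD3 from -0.06 to 0.59. In MiaPaca2 minus Panc1, CLDN12 ran from -0.38 to 0.42, CLDN18 from -0.10 to 0.19, CLDN2 from -0.20 to 0.10, MARVELD2 from -0.25 to 0.17 and MARVELD3 from -0.20 to 0.45. With 1 line left out, pancreatic minus colorectal ran from -0.03 to 0.16 for CLDN18, -1.06 to 0.03 for CLDN2, -1.20 to 1.01 for CLDN7 and -0.75 to 0.34 for MARVELD3. Over all genes, the 6831 calls in Panc1 minus HT29 became 4135 and 4495 without either Panc1 array, and the 3422 in MiaPaca2 minus Panc1 became 1661 and 1656. The 110 calls for the media label ran from 24 to 243 with 1 array left out and were 62 with genes of SD above the median. For the grade split, 104 calls became 498 with the random block and 2 to 135 with 1 line left out. For the tissues, 4 calls became 14 with the random block, 15 with quantile normalization, 0 with robust eBayes and 0 with the mean of the DMSO-labelled MiaPaca2 arrays, and ran from 0 to 3 with 1 line left out. Leaving out an array can leave 1 in a group, which was then assumed to vary like the others. The cause of these changes was not tested. No intensities were available, so the signal over background behind each value is unknown.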
